A study of Rattus norvegicus with 15 samples.

Results

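Solute carrier transporters are the membrane proteins, named Slc followed by a family number, that carry sugars, amino acids, ions, metals, vitamins and metabolites across cell and organelle membranes. Their transcripts were followed here through the loss and the return of glial cell line-derived neurotrophic factor (GDNF) in cultured rat spermatogonial stem cells, the self-renewing germ cells of the testis. A gene was included where a probe set carried 1 gene symbol of this form and had a log2 intensity of at least 4, or 16 on the linear scale, on 3 or more of 15 arrays. Where several probe sets of a gene passed, the one with the highest mean over all arrays stood for it. This gave 154 genes of the 295 solute carrier symbols on the array, and the other 141 were under the low-value level. The 154 were part of 9002 named genes tested. Their mean intensity over all arrays ranged from 15.2 to 8461, with a median of 199.6, and 149 of them were over the level on all 15 arrays. The rule takes symbols, and 2 of the genes, Slc4a1ap and Slc7a6os, are an adaptor and a neighbour of transporters rather than transporters. At the low-value level the log2 intensities that decided it were 4.38, 4.31 and 4.18 for Slc8b1, Slc35a2 and Slc39a3 inside it and 3.92, 3.81 and 3.63 for Slc26a6, Slc15a1 and Slc2a13 outside it.

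The cells had been kept for 1 month in serum-free medium with GDNF. One group then went 18 h without GDNF (withdrawal). Another 3 groups went through the same 18 h and had GDNF restored for 2, 4 or 8 h. The control group had GDNF throughout. Each group had 3 arrays from independent cultures, and the labels give no strain, genotype or age. Cells held in GDNF-free medium up to the return times are not analysed here, so time in culture and GDNF return cannot be told apart.

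GDNF acts through the co-receptor GFRA1 and the receptor RET, and spermatogonial stem cells depend on it for self-renewal. Glucose enters cells mainly through Slc2 facilitators, while large neutral amino acids enter through Slc7 light chains joined to the Slc3a2 heavy chain and glutamine through Slc1 and Slc38 carriers. Slc39 proteins bring zinc and other metals into the cytosol, Slc30 proteins move zinc out of it, and the Slc25 family exchanges metabolites across the inner mitochondrial membrane. Growth factors are known to control several nutrient transporters in other cell types.

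On each array 50.2% to 50.5% of probe sets were over the low-value level. On the first component of variation within groups, which held 25.2% of that variation, control replicate 1, withdrawal replicate 1 and 4 h replicate 1 had the 3 lowest values, -0.323, -0.487 and -0.394. Control replicate 2 and withdrawal replicate 3 lay at the other end, at 0.435 and 0.405. The alternative without 3 arrays together leaves out the 3 lowest. The mean log2 intensity of 9 tested mesenchymal or feeder markers of 13 listed was 8.03 ± 0.43 after withdrawal, 7.48 ± 0.15, 7.74 ± 0.28 and 8.15 ± 0.14 at 2, 4 and 8 h of return, and 8.05 ± 0.24 in the control (SD, n = 3 each). It was lowest at 2 h, and withdrawal replicate 1 (7.54) and 4 h replicate 1 (7.42) lay below the other arrays of their groups. Of 10 germ cell markers 4 were on the array with 1 symbol, and Gfra1 and Lin28a were under the low-value level. The other 2, Ret and Sall4, were tested, and group means of the 2 together were 10.38 to 10.60. By limma 1 of the 2 was higher and 1 lower after withdrawal than in the control, and again at 4 h against withdrawal. Their joint mean therefore does not measure germ cell content. Of 8 Sertoli cell markers 3 were tested, with group means from 6.965 to 7.20, of 6 immune or blood markers 1 was tested (8.15 to 8.29), and all 7 Leydig or peritubular markers were under the level. In these bulk samples fewer cells of a type and less RNA per cell cannot be told apart.

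Promoter sequences are shown for 4 members that changed and that the RefSeq table of assembly GRCr8 held. Slc25a38 had the largest rise at 2 h among the probe sets that stood for members. A dimmer probe set of Slc16a6, near the low-value level, rose by a log2 change of 0.99 there (limma adjusted p = 0.000355). The probe set that stood for Slc16a6 rose by 0.37 (0.0103). Slc35c2, Slc2a1 and Slc7a5 were higher than after withdrawal at 2 or 3 of the return times. These 3 genes were picked after their values were seen, and the sequences of Slc35e4 and Slc2a3 are not shown. Each stretch runs 5′ to 3′ on the strand of the gene, from 250 bases before to 50 bases after its start. Capitals mark a match to an ETS core (CCGGAAG) in Slc25a38 and, on the opposite strand, in Slc35c2, and to an EGR element (GCGNGGGCG) in Slc7a5.
Slc25a38, chr8:128712930-128713229, plus strand: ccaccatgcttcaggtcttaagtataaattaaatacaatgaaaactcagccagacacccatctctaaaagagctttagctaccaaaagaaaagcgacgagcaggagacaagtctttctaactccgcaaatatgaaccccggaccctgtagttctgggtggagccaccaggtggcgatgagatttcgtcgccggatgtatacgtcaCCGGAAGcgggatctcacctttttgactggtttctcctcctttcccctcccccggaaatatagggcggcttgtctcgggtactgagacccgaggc
Slc35c2, chr3:174442733-174443032, minus strand: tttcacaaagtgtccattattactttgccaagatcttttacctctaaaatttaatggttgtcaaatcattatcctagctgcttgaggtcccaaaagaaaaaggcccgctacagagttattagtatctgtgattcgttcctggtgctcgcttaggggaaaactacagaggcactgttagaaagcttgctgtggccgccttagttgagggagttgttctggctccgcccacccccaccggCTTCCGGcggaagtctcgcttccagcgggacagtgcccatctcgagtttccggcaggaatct
Slc2a1, chr5:138002272-138002571, plus strand: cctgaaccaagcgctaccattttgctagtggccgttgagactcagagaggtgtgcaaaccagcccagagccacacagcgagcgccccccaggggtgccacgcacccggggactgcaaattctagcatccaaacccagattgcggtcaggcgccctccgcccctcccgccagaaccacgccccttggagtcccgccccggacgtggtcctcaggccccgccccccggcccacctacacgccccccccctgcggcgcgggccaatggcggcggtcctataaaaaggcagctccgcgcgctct
Slc7a5, chr19:66872363-66872662, minus strand: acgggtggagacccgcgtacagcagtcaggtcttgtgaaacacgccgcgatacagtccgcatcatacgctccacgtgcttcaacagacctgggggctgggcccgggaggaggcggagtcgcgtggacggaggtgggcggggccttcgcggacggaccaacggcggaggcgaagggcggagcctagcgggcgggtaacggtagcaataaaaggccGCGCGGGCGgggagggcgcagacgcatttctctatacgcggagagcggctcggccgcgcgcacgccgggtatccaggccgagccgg
The matches lay 45, 12 and 36 bases before the start in Slc25a38, Slc35c2 and Slc7a5. The letters of 6 motifs of factors that act after growth factor, cyclic AMP or amino acid signals were searched on both strands of the 124 member promoters in the table and of all 33469 promoters of the same length. The ETS core was in 16.9% of member promoters and 8.75% of all. The EGR element was in 13.7% and 4.98%, AP-1 (TGANTCA) in 6.45% and 7.33%, the cyclic AMP element (TGACGTCA) in 4.03% and 1.83%, the ATF4-C/EBP element (TGATGNAA) in 4.03% and 3.98%, and the FOXO element (TGTTTAC) in 0.806% and 3.78%. A match is a description of these letters. The member promoters were 1 per gene and came from genes past the low-value level, while the 33469 were limited in neither way. The 2 sets of shares are thus not from like promoters, and their differences were not tested. Base composition was not matched, and the Slc2a1 and Slc7a5 stretches were 68.3% and 69.3% G or C against a median of 51.7% over all promoters.

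Over the 5 groups 88 of the 154 genes differed by limma's F test (57.1%, against 55.2% of all named genes). After withdrawal 13 members were higher and 23 lower than in the control by limma (adjusted p under 0.05), against 13.8% of all named genes higher and 10.8% lower. At 2 h of return 22 were higher and 29 lower than after withdrawal, against 10.9% and 17.2% of all genes. At 4 h 23 were higher and 28 lower, against 14.7% and 20.6%. At 8 h 18 were higher and 25 lower, against 10.1% and 19.3%. The 8 h arrays set against the control gave 9 members higher and 14 lower, against 4.88% and 9.22%. The shares of members called were 8.44% and 14.9% after withdrawal, 14.3% and 18.8% at 2 h, 14.9% and 18.2% at 4 h, 11.7% and 16.2% at 8 h, and 5.84% and 9.09% for 8 h against control. After withdrawal the share higher was below that of all genes and the share lower above it, differences that were not tested. The 3 comparisons of return with withdrawal, and that of withdrawal with control, share the withdrawal arrays. The median log2 change of the members was 0.00, -0.05, -0.04, -0.01 and -0.03 in these 5 comparisons, beside 0.03, -0.05, -0.04, -0.04 and -0.02 over all named genes. Of the 253 calls in 6 comparisons (8 h against 2 h included), 115 held under every alternative. The alternative with the median change over a gene's probe sets kept the lowest adjusted p among them. A call could therefore end there only by a reversed sign. The calls below that ended when an array was left out are given with it, except where stated. The counts by substrate class below are to be read beside the shares of all named genes given here. No class was tested against those shares.

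**Figure D1:**
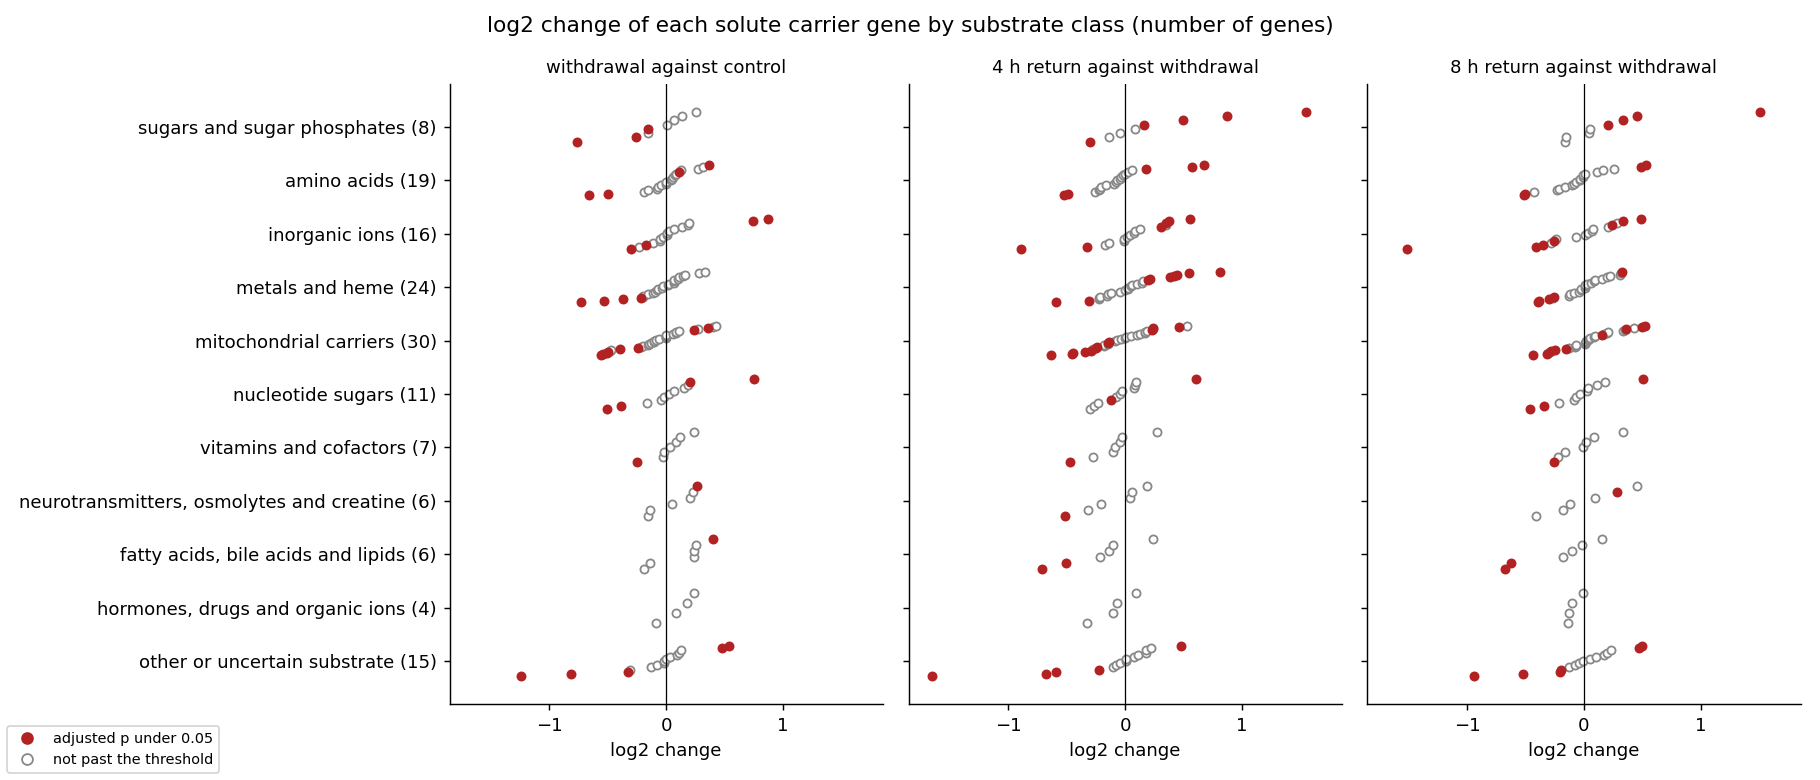
Log2 change of each solute carrier gene (horizontal axis) by substrate class (rows, with the number of genes, classes of 4 or more) for withdrawal against control, 4 h return against withdrawal and 8 h return against withdrawal. Filled points passed limma adjusted p under 0.05 and open points did not; most points lay near 0, no member of the hormone, drug and organic ion class passed, and the point farthest to the right in both return panels was that of the sugar transporter Slc2a3, at 1.55 for 4 h and 2.83-fold for 8 h.

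Sugar transporters held the largest rise. Of 8 tested, 0 were higher and 3 lower after withdrawal, 2 were higher and 0 lower at 2 h, 4 and 1 at 4 h, and 4 and 0 at 8 h. The neuronal-type glucose facilitator Slc2a3 had intensities of 148, 106 and 108 after withdrawal, 126, 159 and 151 at 2 h, 337, 403 and 311 at 4 h, 375, 312 and 328 at 8 h, and 208, 189 and 209 in the control. Every withdrawal array was below every control array, and every 4 h and 8 h array was above every array of the other 3 groups. Its log2 change was -0.76 ± 0.13 for withdrawal against control (limma adjusted p = 0.0009, ± SE here and below). It was 0.28 ± 0.13 at 2 h, which did not pass (adjusted p = 0.143), 1.55 ± 0.13 at 4 h (6.4e-07) and 8 h was 2.83-fold above withdrawal (1.38e-06). At 8 h it was 1.67-fold above the control (adjusted p = 0.00213). These calls held under every alternative.

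Slc2a1, the widely expressed glucose facilitator, moved less and earlier. Its intensities were 65.8, 97.4 and 84.8 after withdrawal, 108.4, 127 and 109 at 2 h, 108.4, 123 and 115 at 4 h, 108.4, 112 and 115 at 8 h, and 94.7, 91.6 and 87.3 in the control. All 9 return arrays were above all 6 others, while the withdrawal arrays overlapped the control. The log2 changes on return were 0.49 ± 0.12, 0.50 ± 0.12 and 0.45 ± 0.12 (limma adjusted p = 0.00754, 0.00507 and 0.0111), and that of withdrawal against control was -0.16 ± 0.12 (0.381). With only the groups compared in the fit the calls at 2 h and 8 h were lost (adjusted p = 0.0519 and 0.059). Slc37a1, an exchanger of glucose 6-phosphate and phosphate in the endoplasmic reticulum, had 28.1, 34.8 and 30.8 at 2 h and 38.6, 33.5 and 33.9 at 4 h, against 19.3, 20.9 and 17.8 after withdrawal. The groups did not overlap, with log2 changes of 0.69 ± 0.12 and 0.87 ± 0.12 (adjusted p = 0.000689 and 5.29e-05), and the control had 20.6, 16.1 and 18.8. At 8 h it was 1.26-fold above withdrawal (adjusted p = 0.0496), a call lost without any of the 6 arrays of these groups (0.0504 to 0.154). Slc50a1, a sugar efflux protein, had intensities of 1409 to 1493 after withdrawal, 1567 to 1677 at 4 h, 1608 to 1712 at 8 h and 1564 to 1654 in the control. It was 1.12- and 1.15-fold above withdrawal at 4 h and 8 h (adjusted p = 0.00691 and 0.00206), and 1.11-fold below the control after withdrawal (0.0154), a call lost without control replicate 3 (0.0568) or withdrawal replicate 2 (0.0689). Slc45a4, of a family of proton-coupled sugar carriers, was 1.2-fold lower after withdrawal than in the control (adjusted p = 0.0216), which did not hold without control replicate 1 (0.0961) or withdrawal replicate 2 (0.0694). Slc37a4, the glucose 6-phosphate translocase, was 1.23-fold below withdrawal at 4 h (0.00667).

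**Figure D2:**
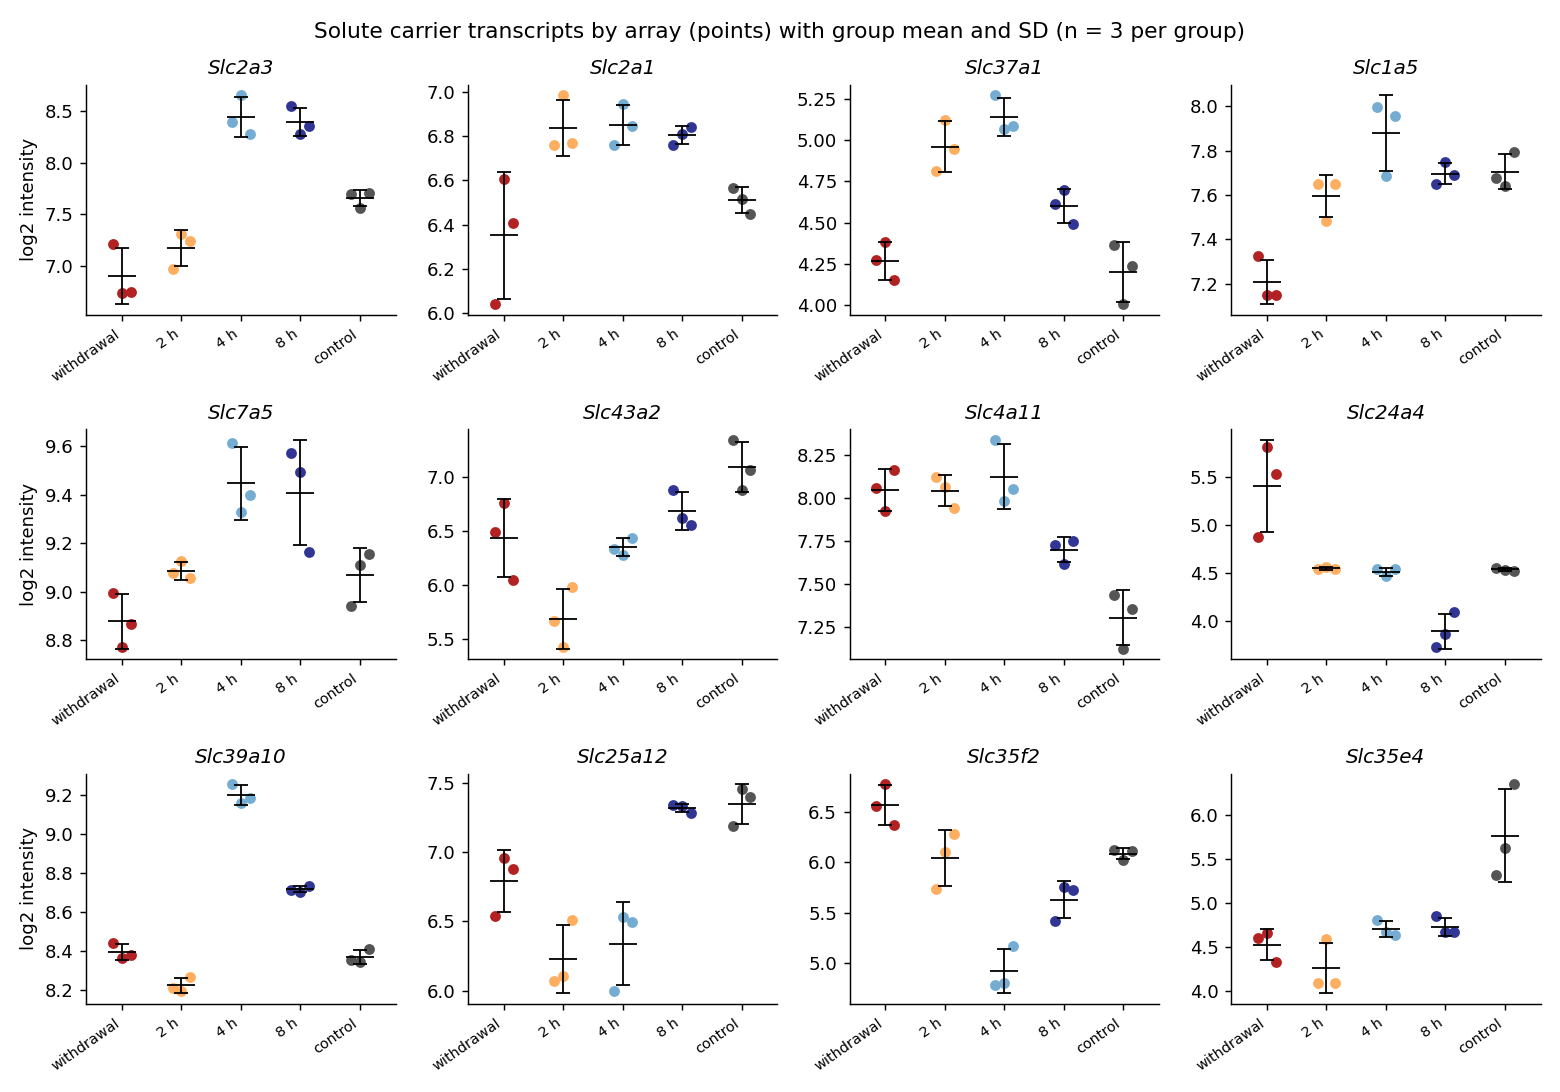
Log2 intensity (vertical axis, scale set per panel) of 12 solute carrier genes on each array, in 5 groups along the horizontal axis from withdrawal through 2, 4 and 8 h of return to control; points are arrays, the horizontal bar is the group mean and the error bar the SD (n = 3). Slc2a3 stood highest at 4 h and 8 h, Slc39a10 peaked at 4 h, Slc35f2 had its lowest values at 4 h, and Slc35e4 was higher in the control than in any other group.

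Of 19 amino acid transporters tested, 2 were higher and 2 lower after withdrawal, 2 and 4 at 2 h, 3 and 2 at 4 h, and 2 and 2 at 8 h. Slc1a5, the main glutamine exchanger of many dividing cells, had intensities of 160.2, 142 and 142 after withdrawal, 201, 179 and 201 at 2 h, 256, 206 and 248 at 4 h, 201, 215 and 207 at 8 h, and 205, 199.8 and 222 in the control. The withdrawal arrays were below all 12 others. Its log2 change was -0.50 ± 0.09 for withdrawal against control (limma adjusted p = 0.00104) and 0.39 ± 0.09, 0.67 ± 0.09 and 0.49 ± 0.09 at the 3 return times (0.00525, 4.61e-05 and 0.00095). With the mesenchymal marker mean as a covariate the 2 h change was no longer past the threshold (0.0812).

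Slc7a5 is the light chain that brings leucine and other large neutral amino acids into cells and Slc3a2 the heavy chain that carries it to the surface. Slc7a5 had intensities of 783, 642 and 675 at 4 h and 761, 719.9 and 573 at 8 h, against 510.1, 437 and 467 after withdrawal. The 2 groups of return arrays lay above withdrawal without overlap, and the log2 changes were 0.57 ± 0.10 and 0.53 ± 0.10 (limma adjusted p = 0.000573 and 0.00129). The change of 0.21 ± 0.10 at 2 h did not pass (0.14), nor did that of -0.19 ± 0.10 for withdrawal against control (0.2). Slc3a2 had intensities of 1212 to 1405 over the 15 arrays and did not pass in any of the 6 comparisons (adjusted p from 0.303 to 0.963). Slc38a2, a sodium-coupled neutral amino acid transporter known to respond to amino acid supply, had 2169, 2194 and 2262 at 2 h and 2229, 2182 and 2124 at 4 h, against 1971, 1918 and 1885 after withdrawal and 1734, 1818 and 1796 in the control. Each return array at these times was above every withdrawal array, and the withdrawal arrays were above the control. The rises were 1.15- and 1.13-fold (adjusted p = 0.00147 and 0.00205). The 1.08-fold excess of withdrawal over control (adjusted p = 0.0462) was lost without any of the control arrays or withdrawal replicate 1 or 2 (0.0551 to 0.148).

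Slc43a2, a facilitator of branched-chain amino acids, had intensities of 89.8, 108.4 and 66.2 after withdrawal, 50.9, 42.95 and 63.1 at 2 h, 80.7, 77.8 and 86.8 at 4 h, 118, 98.1 and 94.2 at 8 h, and 162, 118 and 133 in the control. The 2 h arrays were below all others, and the control arrays were highest, although 8 h replicate 1 reached the lowest of them. Withdrawal was 1.58-fold below control (limma adjusted p = 0.0145), a call lost without control replicate 1 (0.0642) or withdrawal replicate 3 (0.0662). Its other probe set was at a log2 change of -0.80 (adjusted p = 0.000225). On the brighter probe set 2 h was 1.67-fold below withdrawal (0.00654), and 8 h was 1.99-fold above 2 h (0.00081). The other was at -0.56 for 2 h against withdrawal (0.00334) and rose less from 2 h to 8 h (0.52, 0.00486). At 8 h that other probe set was at -0.04 against withdrawal (0.861) and -0.835 against the control (0.000348), where the brighter one did not pass. Slc38a10, whose known substrates include glutamine and alanine, was higher after withdrawal. It had 917, 1061 and 939.7 after withdrawal, against 815, 692 and 759 in the control, a log2 change of 0.36 ± 0.08 (0.00347). On return it had 773, 762 and 817 at 2 h, 759, 637 and 686 at 4 h, and 725, 648 and 666 at 8 h, all below withdrawal, with log2 changes of -0.31 ± 0.08, -0.49 ± 0.08 and -0.52 ± 0.08 (0.00899, 0.000236 and 0.000199). Without withdrawal replicate 2 the 2 h change had an adjusted p of 0.0516.

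Probe sets disagreed for the glycine transporter Slc6a9 and the neutral amino acid transporter Slc38a1. The brightest probe set of Slc6a9 fell on return, with log2 changes of -0.43 ± 0.13, -0.52 ± 0.13 and -0.51 ± 0.13 (limma adjusted p = 0.0211, 0.00571 and 0.00853). Another was past the threshold at 8 h only (adjusted p = 0.00591, with 0.274 and 0.635 at 2 h and 4 h), and a dim one was at 0.33, 0.14 and 0.43 and did not pass. Without 2 h replicate 3 or withdrawal replicate 1 the 2 h call was lost (0.0837 and 0.0866). Slc38a1 was at -0.39 ± 0.09 at 2 h on its brightest probe set (0.00397) and at 0.21 and 0.01 on the others (0.0771 and 0.956). The probe set at 0.21 was lower after withdrawal than in the control (-0.475, limma adjusted p = 0.000954). It was higher at 8 h than after withdrawal (0.355, 0.0062). The brightest probe set did not pass in those 2 comparisons.

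Among 16 transporters of inorganic ions, 2 were higher and 2 lower after withdrawal, 2 and 2 at 2 h, 4 and 2 at 4 h, and 3 and 4 at 8 h. The sodium-phosphate cotransporter Slc20a1 had intensities of 4482, 4291 and 3911 after withdrawal, 5435, 5421 and 5836 at 2 h, 5717, 4933 and 5513 at 4 h, 5122, 4936 and 4877 at 8 h, and 4730.5, 4681 and 4853 in the control. All return arrays were above all control and withdrawal arrays. The log2 changes on return were 0.40 ± 0.06, 0.35 ± 0.06 and 0.24 ± 0.06 (limma adjusted p = 0.000152, 0.000259 and 0.00602). The 1.13-fold fall on withdrawal (adjusted p = 0.0402) was lost without any of the control arrays or withdrawal replicate 2 or 3 (0.0681 to 0.165). The sodium-bicarbonate cotransporter Slc4a7 was 1.3-, 1.29- and 1.26-fold above withdrawal at 2, 4 and 8 h (0.00421, 0.00376 and 0.00915), with 833 to 1053 on the 9 return arrays, against 660.0 to 760.2 after withdrawal. Its other probe set passed at 4 h (0.46, adjusted p = 0.0145) and not at 2 h or 8 h (0.622 and 0.103).

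Slc4a11 and Slc24a4 were the ion transporters that rose on withdrawal. Slc4a11, a membrane protein of the bicarbonate family known for its part in the corneal endothelium, had 266, 243 and 287 after withdrawal, 278, 267 and 246 at 2 h, 323, 253 and 266 at 4 h, 212, 196 and 216 at 8 h, and 173, 139.8 and 164 in the control. The withdrawal, 2 h and 4 h arrays overlapped, the 8 h arrays lay below them, and the control arrays were lowest. The log2 change was 0.74 ± 0.10 for withdrawal against control (limma adjusted p = 0.000122) and -0.35 ± 0.10 for 8 h against withdrawal (0.0214). The call at 8 h was lost without 8 h replicate 2 or withdrawal replicate 1 or 3 (0.0821, 0.055 and 0.0821). Slc24a4, a sodium/calcium-potassium exchanger, was near the low-value level, with 29.3, 56.2 and 46.4 after withdrawal, 23.2, 23.7 and 23.3 at 2 h, 23.2, 22.1 and 23.2 at 4 h, 13.2, 14.5 and 17.01 at 8 h, and 23.5, 23.1 and 23.03 in the control. Withdrawal was above all other groups and 8 h below them. The changes were 0.87 ± 0.17 on withdrawal (0.00214) and -0.86 ± 0.17, -0.89 ± 0.17 and -1.51 ± 0.17 on return (0.0022, 0.00111 and 1.53e-05). At 8 h 2 of the 3 arrays were under the low-value level, and with values under that level set to it the change was -1.38 (2.01e-05). Its other probe set passed for withdrawal (0.68, adjusted p = 0.0354) and 8 h (-1.27, 0.000526) and not at 2 h or 4 h (0.0983 and 0.0574). The potassium-chloride cotransporter Slc12a4 was 1.47-fold above withdrawal at 4 h (0.000407), and Slc12a7 of the same family was 1.19-fold below withdrawal and below control at 8 h (0.000697 and 0.00203). Slc12a2, the sodium-potassium-chloride cotransporter, had 2217 to 2656 over all arrays and did not pass in any of the 6 comparisons (adjusted p from 0.0681 to 0.835).

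Of 24 metal and heme transporters, 0 were higher and 4 lower after withdrawal, 4 were higher and 5 lower at 2 h, 7 and 2 at 4 h, and 1 and 4 at 8 h. The lower counts at the 3 return times include Slc39a3, which was highest after withdrawal. It reached the low-value level on only 5 of the 15 arrays (mean intensity 15.2), so its calls rest partly on values under that level. The zinc importer Slc39a10 had intensities of 346.8, 329 and 332 after withdrawal, 296, 292 and 308 at 2 h, 610.5, 571 and 582 at 4 h, 419.8, 416 and 425 at 8 h, and 327, 325 and 339.8 in the control. The 4 h arrays were above all others, followed by the 8 h arrays, and the 2 h arrays were lowest. The log2 changes were -0.17 ± 0.05 at 2 h (limma adjusted p = 0.0203), 0.81 ± 0.05 at 4 h (1.85e-08) and 0.32 ± 0.05 at 8 h (0.000254). The fall at 2 h was lost without 2 h replicate 1 or 2 or withdrawal replicate 1 (0.0608, 0.0698 and 0.0688), and the rises held under every alternative.

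Slc30a2, which loads zinc into vesicles, had 528, 529.7 and 539 at 2 h, 466, 406 and 430.4 at 4 h, and 495, 477 and 514 at 8 h, against 677, 655 and 624 after withdrawal. Each return array was below each withdrawal array, with log2 changes of -0.29 ± 0.06, -0.59 ± 0.06 and -0.40 ± 0.06 (limma adjusted p = 0.00184, 2.02e-06 and 0.000139), and its second probe set was lower as well (-0.22, -0.39 and -0.26). The Golgi zinc transporter Slc30a7 was 1.29-fold lower after withdrawal than in the control (0.00926) and 1.34- and 1.46-fold above withdrawal at 2 h and 4 h (0.00346 and 0.000344). At 4 h the zinc transporters Slc39a7 of the endoplasmic reticulum and Golgi, Slc39a13 and Slc30a4 were 1.16-, 1.36- and 1.31-fold above withdrawal (0.000653, 0.000967 and 0.00113). Slc41a3, a magnesium transporter of mitochondria, had 142, 152 and 122 after withdrawal, against 231, 234 and 223 in the control. The groups did not overlap, and the log2 change was -0.73 ± 0.12 (0.000389), while no return time passed against withdrawal. Slc48a1, which exports heme from lysosomes, was 1.45-fold lower after withdrawal (0.00478). The copper importer Slc31a1 was 1.27-fold above withdrawal at 2 h (0.000702), and 2 of its 3 other probe sets rose there too (0.00249 and 0.00594), the remaining one at 0.24 not passing (0.0957). Slc41a1, a magnesium exporter, was 1.38-fold below withdrawal at 2 h (0.00288).

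**Figure D3:**
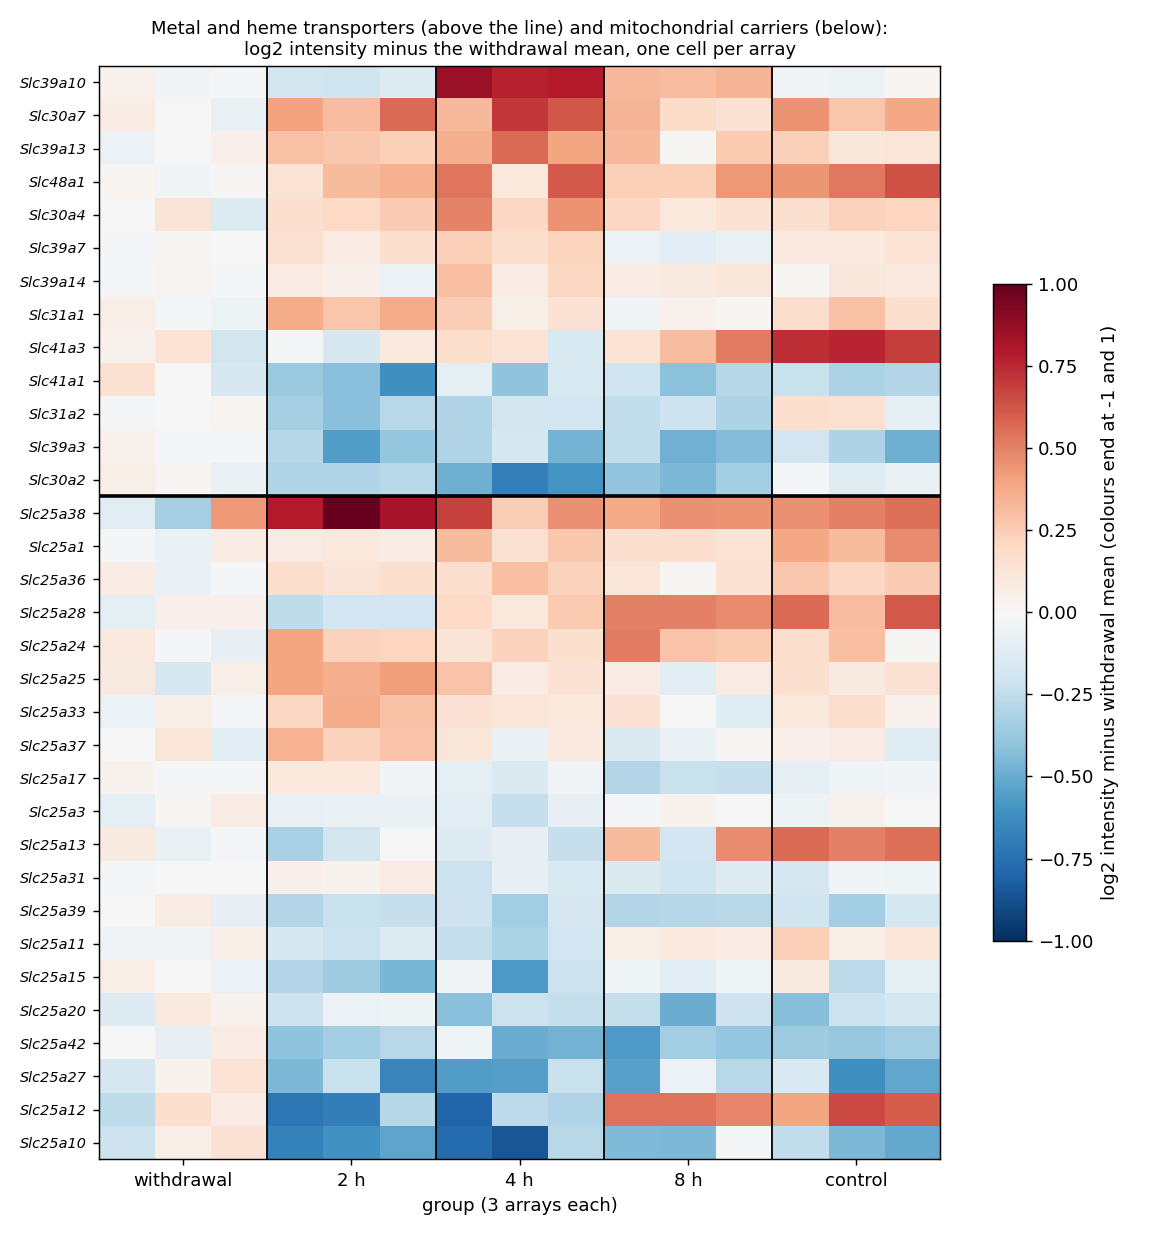
Log2 intensity minus the withdrawal mean on each array (columns, 3 per group, from withdrawal through 2, 4 and 8 h of return to control) for the 13 metal and heme transporters and the 20 mitochondrial carriers that passed in at least 1 of the comparisons with the control or with withdrawal (rows). Red is above and blue below the withdrawal mean; Slc39a10 is red at 4 h and 8 h alone, Slc25a38 is reddest at 2 h, and Slc25a12 is blue at 2 h and 4 h and red at 8 h and in the control.

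The mitochondrial carrier family was the largest class, with 30 tested. After withdrawal 2 were higher and 6 lower, at 2 h 6 and 6, at 4 h 3 and 9, and at 8 h 4 and 5. By the F test over the 5 groups 22 of the 30 differed, beside 55.2% of all named genes, a difference that was not tested. The citrate carrier Slc25a1, which exports citrate for lipid synthesis, had 902, 868 and 954 after withdrawal, 958, 975 and 953 at 2 h, 1128, 1006 and 1092 at 4 h, 1013, 1012 and 995 at 8 h, and 1186, 1129 and 1258 in the control. Every control array was above every other array, the nearest being 4 h replicate 1. The log2 change was -0.39 ± 0.05 for withdrawal against control (limma adjusted p = 8.55e-05) and 0.24 ± 0.05 for 4 h against withdrawal (0.00258), and 8 h was 1.18-fold below the control (0.00704).

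Slc25a28, one of the iron importers of mitochondria called mitoferrins, had 304, 336 and 335 after withdrawal, 273, 285 and 285 at 2 h, 372, 349 and 389 at 4 h, 460.1, 460.0 and 451 at 8 h, and 479.3, 402 and 498 in the control. The 2 h arrays were lowest and the 8 h and control arrays overlapped. Withdrawal was at -0.50 ± 0.07 against control (limma adjusted p = 0.000259) and 8 h at 0.49 ± 0.07 against withdrawal (0.000225). The other mitoferrin, Slc25a37, was at 0.29 ± 0.08 at 2 h (0.019), a call lost without 2 h replicate 1 or withdrawal replicate 3 (0.0729 and 0.0799). Slc25a38, the glycine importer that feeds heme synthesis, had 58.8, 69.6 and 59.9 at 2 h, against 31.5, 26.9 and 45.9 after withdrawal and 46.4, 48.03 and 49.7 in the control. All 2 h arrays were above the 6 others, and the change of 0.89 ± 0.16 (0.00104) held under every alternative. The fall of Slc25a38 on withdrawal (-0.50 ± 0.16, adjusted p = 0.0345) was lost without any of the control arrays or withdrawal replicate 1 or 2 (0.0592 to 0.161).

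Both aspartate-glutamate carriers, which serve the malate-aspartate shuttle, were lower after withdrawal. Slc25a13 had 57.1, 50.9 and 53.4 after withdrawal, against 79.6, 76.4 and 78.9 in the control, without overlap (log2 change -0.54 ± 0.14, limma adjusted p = 0.0112). Without the 3 arrays lowest on the within-group component the adjusted p was 0.0552. Slc25a12 had 93.1, 124 and 117 after withdrawal, 67.1, 68.8 and 91.1 at 2 h, 63.8, 92.4 and 90.1 at 4 h, 162, 161 and 156 at 8 h, and 145, 175 and 169 in the control. Its 2 h and 4 h arrays were lowest, and the 8 h arrays overlapped the control. The change was -0.55 ± 0.15 on withdrawal (0.0179), lost without control replicate 2, control replicate 3 or withdrawal replicate 1 (0.0671, 0.0545 and 0.0846), and 0.53 ± 0.15 for 8 h against withdrawal (0.0204), lost without 8 h replicate 1 or 2 or withdrawal replicate 1 (0.0558, 0.0566 and 0.0953). The 8 h arrays were 2.13-fold above the 2 h arrays (0.000129), which held under every alternative. Slc25a12 also had a within-group slope of 0.63 on the mesenchymal marker mean (adjusted p = 0.0352), and its 2 h change of -0.56 ± 0.15 was not past the threshold with that mean as a covariate (0.285). The glutathione carrier Slc25a39 was 1.18-fold higher after withdrawal (0.0067) and 1.19-, 1.18- and 1.22-fold below withdrawal on return (0.00464, 0.00461 and 0.00182). The carrier Slc25a25, an ATP-magnesium and phosphate exchanger, rose 1.31-fold at 2 h (0.00219), and Slc25a33, a pyrimidine nucleotide carrier, 1.22-fold (0.00778). At 4 h the oxoglutarate carrier Slc25a11 was 1.19-fold below withdrawal (0.00241). The dicarboxylate carrier Slc25a10 also passed at 4 h (0.00716), but 2 of its 3 arrays there were under the low-value level, and with values under that level set to it the log2 change was -0.54 (0.00862). At 8 h Slc25a24, an ATP-magnesium and phosphate carrier, was 1.28-fold above withdrawal (0.00929), while Slc25a42, which carries coenzyme A, and the peroxisomal carrier Slc25a17 were 1.35- and 1.19-fold below it (0.0097 and 0.0029). The pyrimidine nucleotide carrier Slc25a36 was 1.18-fold lower after withdrawal (0.00256), and its other probe set was at 0.19 and did not pass (0.0608).

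The adenine nucleotide carriers Slc25a4 and Slc25a5, which exchange ADP and ATP, and the plasma membrane creatine transporter Slc6a8 moved with the mesenchymal marker mean across arrays of 1 group. Slc25a4 had 718, 1669.8 and 2264 on the 3 withdrawal arrays, where the marker mean was 7.54, 8.27 and 8.30. The low array was withdrawal replicate 1, the lowest of the 15 on the within-group component. Slc25a4, Slc25a5 and Slc6a8 had within-group slopes of 1.74, 1.01 and 1.63 log2 units per log2 unit of the marker mean (limma adjusted p = 2.66e-06, 7.66e-06 and 2.05e-06). In all 7 of the 154 members had a slope past the threshold, 6 of them positive. The share of all named genes with such a slope is not given here, so this count only describes the members. Slc25a5 had 2826, 4469 and 5522 after withdrawal and 3836, 5398 and 4023 in the control, and Slc6a8 had 93.9, 222 and 244 after withdrawal and 162, 256 and 169 in the control. The groups overlapped, and none of these genes passed for withdrawal against control. None passed at a return time against withdrawal either. The part of mesenchymal or feeder RNA in these values was not tested.

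**Figure D4:**
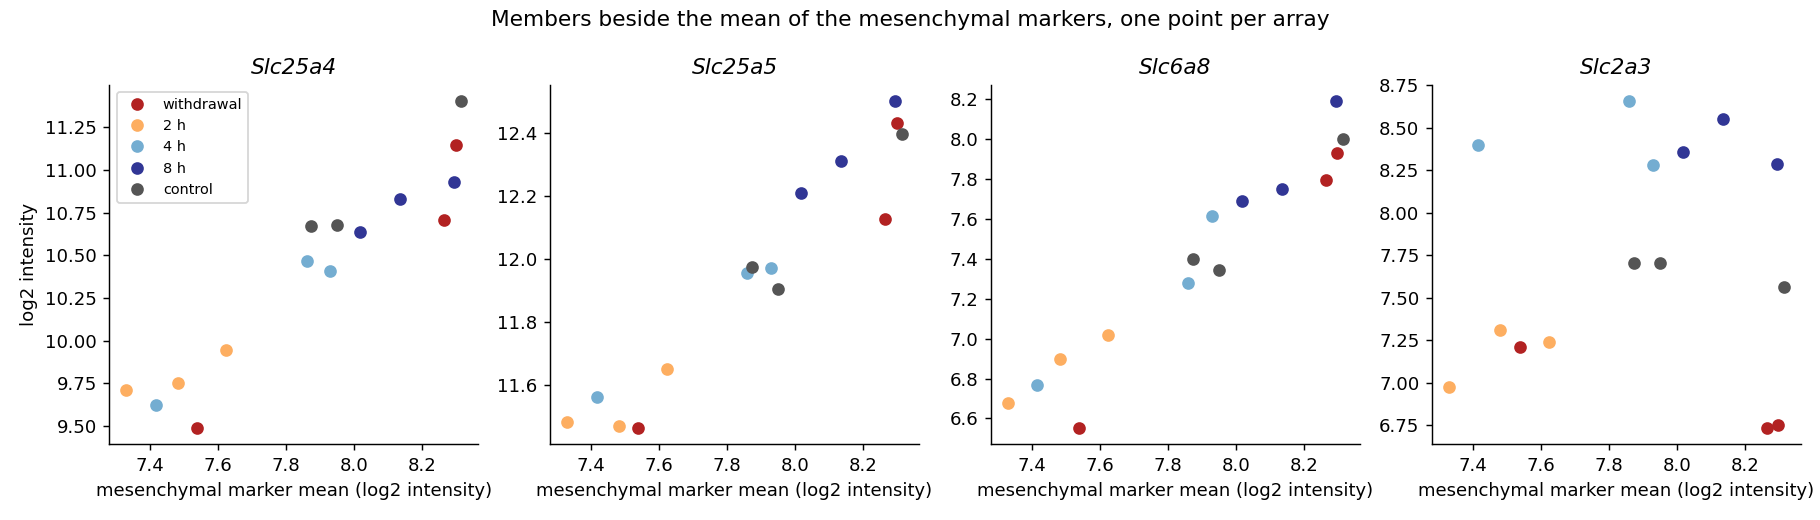
Log2 intensity of 4 solute carrier genes (vertical axes, scale set per panel) against the mean log2 intensity of 9 mesenchymal or feeder markers (horizontal axis) on the 15 arrays, coloured by group. Slc25a4, Slc25a5 and Slc6a8 were high where the marker mean was high, also within groups, while Slc2a3 separated by group, with the 4 h and 8 h arrays above the rest at any marker mean.

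Of 11 transporters of nucleotide sugars, which supply glycosylation in the endoplasmic reticulum and Golgi, 2 were higher and 2 lower after withdrawal, 2 and 1 at 2 h, 1 and 1 at 4 h, and 1 and 2 at 8 h. A pair tied to fucose moved in opposite directions. Slc35c2, linked in human cells to GDP-fucose supply for Notch fucosylation, had 125, 108 and 118 after withdrawal, 163, 184 and 140.3 at 2 h, 182, 171 and 179 at 4 h, 165, 167 and 163 at 8 h, and 165, 163 and 168 in the control. The withdrawal arrays were below all others, with a log2 change of -0.50 ± 0.09 against control (limma adjusted p = 0.000961) and 0.47 ± 0.09, 0.60 ± 0.09 and 0.50 ± 0.09 on return (0.00155, 0.000128 and 0.000803). Slc35c1, the GDP-fucose transporter of the Golgi, had 70.3, 59.97 and 58.96 after withdrawal, against 45.9, 36.04 and 31.7 in the control, without overlap (0.75 ± 0.16, adjusted p = 0.00376). Its change of -0.47 ± 0.16 at 8 h against withdrawal (0.045) was lost without any of the 6 arrays (0.0572 to 0.15). Slc35b4, which carries UDP-xylose and UDP-N-acetylglucosamine, was 1.3-fold lower after withdrawal (0.00712). Its other probe set, at -0.39, did not pass (0.0826).

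The class of other or uncertain substrate (15 tested) had 2 members higher and 3 lower after withdrawal, 3 and 4 at 2 h, 1 and 4 at 4 h, and 2 and 4 at 8 h. Slc35f2, known in human cells to import the drug YM155, had 93.9, 109 and 82.8 after withdrawal, 53.4, 68.5 and 77.8 at 2 h, 27.5, 27.98 and 35.97 at 4 h, 42.7, 53.8 and 52.8 at 8 h, and 69.6, 64.8 and 69.2 in the control. The 4 h arrays were below all others, the 8 h arrays overlapped only the lowest 2 h array, and the withdrawal arrays were highest. The log2 change was -1.65 ± 0.15 at 4 h (limma adjusted p = 1.18e-06) and -0.94 ± 0.15 at 8 h (0.000367). The rise of 0.48 ± 0.15 on withdrawal (0.0335) was lost without any of the control arrays or withdrawal replicate 1 or 2 (0.0605 to 0.139), and the fall at 2 h (0.0187) without 2 h replicate 1 or withdrawal replicate 2 (0.0954 and 0.0892). Slc35e4, a member with no settled substrate, had 24.2, 25.2 and 20.02 after withdrawal, 17.1, 24.04 and 17.1 at 2 h, 27.9, 25.3 and 24.9 at 4 h, 28.7, 25.4 and 25.3 at 8 h, and 39.9, 49.3 and 81.1 in the control. Each of the control arrays was above all 12 others. Those 12, at 17.1 to 28.7, lay near the low-value level, and the control arrays ranged from 39.9 to 81.1. The sizes of the changes are therefore imprecise. Withdrawal was at -1.24 ± 0.20 against control (0.000561) and 8 h at -1.03 ± 0.20 (0.00402), both under every alternative, and no return time passed against withdrawal.

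The PQ-loop proteins Slc66a2 and Slc66a3 were lower after withdrawal by 1.75- and 1.26-fold (limma adjusted p = 0.00112 and 0.00392). On return Slc66a3 had 157, 149 and 159 at 4 h, against 241, 227 and 235 after withdrawal and 269, 317 and 298 in the control, a log2 change of -0.59 ± 0.07 (1.79e-05), and at 8 h it was 1.45-fold below the control (0.000185). Slc66a2 was 1.39- and 1.41-fold above withdrawal at 4 h and 8 h (0.0221 and 0.0212), calls lost without withdrawal replicate 3 (0.108 and 0.0955), 4 h replicate 3 (0.0646) and 8 h replicate 1 (0.0785). Of 6 fatty acid, bile acid and lipid carriers 0 were higher and 2 lower at 4 h and at 8 h. Slc27a3, which has acyl-CoA synthetase activity, was 1.42- and 1.6-fold below withdrawal at these times (0.00112 and 0.000136), and Slc10a7, known from human cells for calcium balance of the Golgi, 1.64- and 1.54-fold (0.000417 and 0.00153).

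Among 7 carriers of vitamins and cofactors 0 were higher and 1 lower after withdrawal, 1 and 2 at 2 h, 0 and 1 at 4 h, and 0 and 1 at 8 h. The reduced folate carrier Slc19a1 was 1.39-fold below withdrawal at 4 h (limma adjusted p = 0.00187), the riboflavin transporter Slc52a2 1.45-fold at 2 h (0.00528) and the biotin and pantothenate transporter Slc5a6 1.19-fold at 8 h (0.00296). The choline transporter Slc44a1 was 1.43-fold below withdrawal at 4 h (0.000488), as was its other probe set (-0.60, adjusted p = 0.000517). The lysosomal histidine and peptide transporter Slc15a4 was 1.41-fold below withdrawal at 2 h (0.00342). The lactate and pyruvate transporter Slc16a1 had 1192 to 1422 over all arrays and was 1.12-fold below withdrawal at 4 h (0.0143), which was not past the threshold without the 3 arrays lowest on the within-group component (0.116). Its ancillary protein gene Bsg was 1.11-fold lower at 4 h (0.0392). Emb, which encodes the related ancillary protein embigin, had a mean of 865 after withdrawal against 1466 in the control (log2 change -0.76 ± 0.05, adjusted p = 6.59e-08) and 744.5 at 8 h, 1.97-fold below the control (2.4e-08). The cystine transporter Slc7a11 and the lactate exporter Slc16a3 were under the low-value level.

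Set against the control, the 8 h arrays differed for 23 members, and 8 of these calls held under every alternative. Among the 9 higher at 8 h than in the control were Slc2a3 (0.74 ± 0.13) and Slc39a10 (0.35 ± 0.05, limma adjusted p = 0.000373). Slc26a8, Slc37a1, Slc35f5, Slc7a5 and Slc38a2 were higher too, and their results with 1 array left out are not given here. Slc39a10 had 8 h intensities of 416 to 425 against 325 to 339.8 in the control. Slc4a11 was at 0.39 ± 0.10 (0.0211), lost without control replicate 2 or 8 h replicate 1 or 3 (0.0846, 0.067 and 0.0739). Among the 14 lower at 8 h were Slc35e4, Slc66a3, Slc25a1, Slc12a7, Slc30a2 (-0.33 ± 0.06, adjusted p = 0.00166), Slc39a7 (-0.19 ± 0.04, 0.00383) and Slc27a3 (-0.42 ± 0.10, 0.0102). Slc24a4, partly under the low-value level at 8 h, was lower too (-0.645, limma adjusted p = 0.023). Its other probe set did not pass (0.085), and its results with 1 array left out are not given here. The other probe set of Slc30a2, at -0.02, did not pass (0.896). Slc41a3 was at -0.41 ± 0.12 (0.0305), a call lost without any of the control arrays or 8 h replicate 1 or 2 (0.0618 to 0.129). Slc1a5, Slc25a28, Slc25a12 and Slc35c2, all lower after withdrawal, did not pass at 8 h against the control.

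The return times also differed among themselves. Between 8 h and 2 h, 27 members were higher (17.5%) and 22 lower (14.3%), against 13.0% and 15.4% of all named genes. Of the 154 members, 11 were called higher and 2 lower by at least 1.5-fold. Of all named genes 3.44% were called higher and 1.5% lower by that size. The 11 included Slc25a4, Slc25a5 and Slc6a8, which moved with the mesenchymal marker mean. These differences in shares were not tested. The comparison of 8 h with 2 h was added after the data were seen. The monocarboxylate family member Slc16a9, described in human cells as a carnitine exporter, had 119, 96.8 and 92.3 at 8 h, against 59.1, 50.3 and 59.05 at 2 h. The groups did not overlap (log2 change 0.87 ± 0.14, limma adjusted p = 0.000402). The phosphate transporter Slc20a2 had 116, 100.4 and 77.4 at 8 h, against 72.0, 59.8 and 54.4 at 2 h (0.65 ± 0.15, adjusted p = 0.00652), again without overlap. The sodium-bicarbonate transporter Slc4a10 ran the other way, with 126, 131 and 152 at 8 h, against 242, 207.0 and 209 at 2 h (-0.68 ± 0.12, adjusted p = 0.000789). These 3 changes held under every alternative. The taurine transporter Slc6a6 was 1.32-fold higher at 8 h than at 2 h (0.00118), which did not pass with the mesenchymal marker mean as a covariate (0.0831). That marker mean was itself 8.15 ± 0.14 at 8 h and 7.48 ± 0.15 at 2 h (SD, n = 3 each), with no overlap of arrays. With it as a covariate 25 members passed, against 49 without it. Since the marker mean separated these 2 groups, it and the time of return cannot be fully told apart in that fit. The matching counts over all named genes are not given here, so the lower count is not a result about the members.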

How the data were processed

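Expression was measured on 15 one-colour rat arrays, 3 from independent cultures in each of 5 groups assigned from the sample titles. The values are the intensities the authors deposited, normalized on a linear scale, and the submitters' processing notes name GCRMA and Partek 6.3 without their settings. Depth does not apply to arrays, and 3 arrays a group limit the precision. Every sample column was used (0 left out).

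The log2 of the deposited intensities was fitted for all 15 arrays with limma 3.58.1 in R 4.3.3 (lmFit, eBayes with an intensity trend), on the 15856 of 31099 probe sets with log2 at least 4 on 3 arrays. Benjamini-Hochberg adjustment ran over these probe sets with a threshold of 0.05. Tables were handled with Python 3.11.15, pandas 2.3.3, numpy 2.4.6 and scipy 1.17.1, and the fit was tested on simulated data. Gene names came from the platform annotation, and all 154 matched RefSeq.

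Genes were named by rule: up to 10 of the largest rises and 10 of the largest falls per comparison among called genes whose groups did not overlap, up to 3 called genes per class by adjusted p, and a short list of well-known transporters. Members and lists were chosen with earlier results of these data known. The labels state no pairing by replicate number, and none was used in the main fit. Same-numbered arrays had correlations of deviations from group means between -0.138 and 0.389 (median 0.0405), and 22 of 30 were at or under 0.1. Differently numbered arrays had -0.33 to 0.358 (median -0.013). Among the replicate 1 arrays, withdrawal with 4 h had 0.389, control with 4 h 0.238 and control with withdrawal 0.236. Whether replicate 1 arrays share a batch was not tested. Alternatives changed the filter, normalization, variance prior, array weights, probe sets, samples in the fit and replicates. The alternative with the median over a gene's probe sets kept their lowest adjusted p, so it tested the direction of a call only. The marker covariate and the joint omission of 3 arrays were added after seeing the data.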

Additional observations from a re-analysis of the deposited data

Results flagged for a closer look

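The members below had the largest log2 differences between 8 h and 2 h of return, in each direction. They were picked among those past limma's threshold in that comparison whose groups did not overlap. Passing that test was thus part of the choice and adds no support. The 8 h minus 2 h difference was 1.22 for Slc2a3, 1.09 for Slc25a12, 0.99 for Slc43a2 (0.52 on its other probe set), 0.87 for Slc16a9, 0.70 for Slc25a28, 0.65 for Slc20a2 and 0.64 for Slc66a2, all higher at 8 h. It was 1.01 for Slc6a8, 1.00 for Slc25a4 and 0.81 for Slc25a5, the genes that followed the mesenchymal marker mean within groups, and these 3 did not pass with that mean as a covariate. Lower at 8 h were Slc4a10 (-0.68) and Slc24a4 (-0.66, or -0.52 with values under the low-value level set to it, which 2 of the 3 arrays at 8 h were under). Also lower at 8 h were Slc10a7 (-0.535), Slc35e1 (-0.47), Slc25a38 (-0.46), Slc38a6 (-0.405), Slc27a3 (-0.39), Slc25a25 (-0.37), Slc37a1 (-0.36) and Slc25a37 (-0.36), none of which passed with the marker mean as a covariate.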

How the results depend on the processing

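Precision is set by 3 arrays a group. Of the 253 calls, 115 held under every alternative. Of these 253, 73 were lost with no low-value filter, 64 with the mesenchymal marker mean as a covariate, 61 with only the groups compared, 57 without 3 arrays together and 0 with the filter applied per group. Leaving out 1 array was run on the calls that use its group, and lost 43 of 115 without 8 h replicate 2, 33 of 100 without 2 h replicate 2 and 21 of 59 without control replicate 1. The cause was not tested. For 8 h against control, 23 members passed, against 12 with no filter, 11 with only the groups compared, 15 without the 3 arrays together, and 10 to 17 with 1 array left out. For 8 h against withdrawal, 43 passed, against 28 with no filter and 27 to 37 with 1 array left out. For 8 h against 2 h, 49 passed, against 25 with the marker mean as a covariate and 35 to 39 with 1 array left out. The marker mean separated the 8 h arrays from the 2 h arrays. Counts under the alternatives are of members only, without the matching counts over all named genes. With 1 array left out, counts were 27 to 34 for withdrawal against control (36 in all), 35 to 50 at 2 h (51), 41 to 50 at 4 h (51) and 74 to 89 for the F test (88). Log2 changes that reversed were those of Slc25a4 (-0.17), Slc6a8 (-0.081) and Slc29a1 (-0.015) between 8 h and 2 h with the marker mean as a covariate, and that of Slc38a1 at 2 h as the median over its probe sets (0.01). With the replicate block the counts were 39 for withdrawal against control, 53, 52 and 40 at 2, 4 and 8 h, 22 for 8 h against control, 52 for 8 h against 2 h and 92 for the F test.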

Other observations

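Some transporters outside the Slc symbols also passed the threshold, in lists chosen with earlier results of these data known. No list was tested against all genes. Of 21 tested ATP-binding cassette transporters of 37 listed, 7 were higher and 2 lower after withdrawal than in the control, with a median log2 change of 0.10 against 0.03 over all named genes. Of all named genes 13.8% were higher and 10.8% lower there. Against withdrawal, 1 was higher and 6 lower at 2 h, 0 and 7 at 4 h, and 0 and 8 at 8 h. The shares of all named genes were 10.9% and 17.2%, 14.7% and 20.6%, and 10.1% and 19.3% at these times. Abca1, which exports cholesterol to apolipoproteins, had a mean intensity of 1515 at 2 h, 1288 at 4 h and 1625 at 8 h, against 2141 after withdrawal (log2 change at 4 h -0.73 ± 0.06, SE, limma adjusted p = 2.21e-07). Abcg1, another sterol exporter, had 1564 at 8 h, against 2337 after withdrawal (-0.58 ± 0.06, adjusted p = 1.3e-05). Abcg2, a drug efflux pump known from stem cells, was lower after withdrawal (603 against 767 in the control, adjusted p = 0.00836) and 768 at 2 h (0.00691 against withdrawal).

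Of 16 tested P-type ATPases and sodium pump subunits of 33 listed, 0 were higher and 3 lower after withdrawal, and 5 were higher and 2 lower at 4 h. Of all named genes 13.8% and 10.8% were higher and lower after withdrawal, and 14.7% and 20.6% at 4 h. Atp1b1, a beta subunit of the sodium pump, had 317 after withdrawal, 413 at 4 h, 491 at 8 h and 576 in the control (withdrawal against control -0.86 ± 0.06, limma adjusted p = 1.35e-07). Atp8b2, a phospholipid flippase, had 1983 at 4 h, against 956 after withdrawal (1.05 ± 0.08, adjusted p = 1.73e-07). The copper pump Atp7a was 1.47-fold above withdrawal at 4 h (0.000139). Among 18 tested members of solute carrier families under other symbols, Flvcr2, linked to choline transport, had 35.4 after withdrawal, against 70.1 in the control (-0.99 ± 0.12, adjusted p = 4.85e-05). Ankh, which takes part in pyrophosphate and citrate export, had 90.5 at 8 h, against 42.8 in the control (1.08 ± 0.14, adjusted p = 0.000194).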
